A study of Mus musculus with 15 samples.

Results

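The junctions described here joined the 5′Sμ bait of a CSR-HTGTS experiment to DNA on its upstream side, where the J and D segments of the immunoglobulin heavy chain locus (Igh) lie. CSR-HTGTS reads out of a fixed bait sequence and records, at base resolution, the prey sequence to which a break near the bait was joined. Members were all junctions on chromosome 12 from 114665000 to below 114700000 in mm9, a window of 35 kb that starts 91 bp above the usual start of the bait read. There were 1004 such junctions among 42200 in 10 junction lists, or 2.73% of the 36735 junctions in the wider Igh window from 114450000 to 114700000. The lists came from splenic B cells of C57BL/6 mice stimulated with IL-4, LPS and dextran-coupled anti-IgD, and the labels name the genotypes WT, Shld1-/-, Xlf-/- and Shld1-/- Xlf-/-. SHLD1 is a subunit of shieldin, which limits the trimming of broken DNA ends, and XLF is a factor of classical non-homologous end joining.

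Class switch recombination joins a break in Sμ to a break in a downstream switch region such as Sγ1, so that the DNA between them is deleted. The upstream side of the bait is not part of that deletion. It holds the intron between the J segments and Cμ with its enhancer, then the J segments and the D segments. In a mature B cell the V(D)J joining that happened earlier has removed the DNA between the joined segments on the rearranged alleles, so germline DNA above the J segments is kept only on alleles that have not lost it. The bait read runs away from the upstream window, toward Sγ1. A prey on the bait strand therefore ran back toward the bait (same strand), and a prey on the other strand ran away from it, toward the D segments (opposite strand). Neither orientation is the joint that a simple deletion leaves on the chromosome. Whether bait and prey lay on 1 chromosome was not tested.

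The labels and the plots of the study gave different genotypes for 6 of the 10 libraries, and the same genotype for 4. Libraries are named here by their label and a number, with the genotype printed in the plots beside it. Printed as WT were WT 1, Shld1-/- 2 and Xlf-/- 3. Printed as Shld1-/- were WT 2, Shld1-/- 3 and Shld1-/- Xlf-/- 1. Printed as Xlf-/- were WT 3 and Xlf-/- 1, and printed as Shld1-/- Xlf-/- were Xlf-/- 2 and Shld1-/- Xlf-/- 3. The printed genotypes had been assigned by matching counts of Sγ1 junctions, so any measure that includes Sγ1 junctions is not fully independent of them. The direct join share of Sγ1 junctions, which the matching did not use, was 30.3% to 31.0% in libraries printed as WT, 12.7% to 16.6% in those printed as Shld1-/-, 13.0% and 18.2% in those printed as Xlf-/-, and 5.50% and 5.73% in those printed as Shld1-/- Xlf-/-. By label it ranged from 16.6% to 30.3% in WT, was 16.2% and 30.8% in Shld1-/-, ranged from 5.50% to 31.0% in Xlf-/- and was 5.73% and 12.7% in Shld1-/- Xlf-/-, so that it spread less within printed genotypes than within labels. In the order of the series, the labels run in blocks of the same genotype. The printed genotypes, where there is one, instead repeat the order WT, Shld1-/-, Xlf-/-, Shld1-/- Xlf-/-. No test between the assignments was made, and each of the 12 tests of gene loss is given under both. The labels also name altered Igh alleles that differ between genotypes: a deletion from Sμ to Sα of the non-coding allele in the WT group, a further deletion of Iα in both single mutants, and an insertion of CBEs downstream of Cγ2a in the double mutant. The methods do not describe such alleles for these mice, and their part in any difference cannot be told apart from the genotype label. The study used separate mice, but the labels do not tie a library to a mouse.

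Each library had 31 to 209 upstream junctions, out of 1159 to 8110 Igh junctions. With these totals, 3 junctions correspond to between 0.037% and 0.259% of a library's Igh junctions. No upstream row carried the pipeline's flag for duplicates or for mapping quality, no read name occurred in more than 1 library, and 23 rows repeated the position, strand and bait end of another row of the same library.

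The sequences around the bait show what an upstream junction looked like. The first is the bait as it was read, at chr12:113426599-113426698 on the minus strand of GRCm38, printed without capitals. The second is the start of the upstream window, at chr12:113426789-113427088 on the plus strand, with capitals at the 27 bases where at least 2 opposite-strand junctions began. It is shown because 129 opposite-strand junctions began within these 300 bases. The next are reads across the most frequent named position of each orientation, printed as 40 bait bases, the bases shared by bait and prey in capitals, and 50 prey bases. Where positions tied, as for the opposite strand, the lower coordinate was taken. The last is the J segment nearest the bait, Ighj4, in capitals with 60 bases on each side, at chr12:113428454-113428627 on the minus strand. It is shown because 26 of the 36 junctions in this stretch had the prey on the bait strand.
Bait: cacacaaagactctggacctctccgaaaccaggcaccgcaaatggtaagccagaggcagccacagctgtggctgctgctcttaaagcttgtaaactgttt
Window start: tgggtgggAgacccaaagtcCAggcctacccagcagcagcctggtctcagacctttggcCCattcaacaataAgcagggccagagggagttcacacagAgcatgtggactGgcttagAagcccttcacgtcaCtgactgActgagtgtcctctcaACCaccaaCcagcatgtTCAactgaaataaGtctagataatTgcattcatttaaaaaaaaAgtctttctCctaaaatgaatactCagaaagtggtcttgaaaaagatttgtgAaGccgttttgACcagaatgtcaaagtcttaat
Opposite-strand junction: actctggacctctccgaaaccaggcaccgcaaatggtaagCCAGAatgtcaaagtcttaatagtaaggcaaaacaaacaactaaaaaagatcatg
Same-strand junction: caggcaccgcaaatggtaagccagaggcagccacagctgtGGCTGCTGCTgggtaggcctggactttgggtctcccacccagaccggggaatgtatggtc
Ighj4: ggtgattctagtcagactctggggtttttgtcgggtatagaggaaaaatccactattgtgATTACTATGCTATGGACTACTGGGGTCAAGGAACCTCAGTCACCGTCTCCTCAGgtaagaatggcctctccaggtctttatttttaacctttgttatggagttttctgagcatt

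The opposite-strand read came from WT 2 (printed as Shld1-/-), with its prey at 114665279 in mm9 and a microhomology (MH, bases that both partners share at the join) of 5 bp. The same-strand read came from WT 3 (printed as Xlf-/-), with its prey at 114665040 and an MH of 10 bp. Both preys lay within the first 300 bases of the window. All 4 junctions at 114665279, in 3 libraries, were opposite-strand, with MH of 3 to 5 bp. All 3 junctions at 114665040, in 3 libraries, were same-strand with an MH of 10 bp. The other named positions were 114665059, with 4 junctions of which 2 were same-strand, 114665344, with 4 opposite-strand junctions, and 114665036, with 3 junctions. No position held more than 4 junctions, and 736 of the 856 positions held 1, so that the upstream junctions were dispersed.

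Libraries printed as WT had the lowest share of upstream junctions and libraries printed as Shld1-/- Xlf-/- the highest. The upstream share of Igh junctions was 0.754% in WT 1, 1.15% in Shld1-/- 2 and 1.10% in Xlf-/- 3, all printed as WT. It was 3.44% in WT 2, 3.78% in Shld1-/- 3 and 3.79% in Shld1-/- Xlf-/- 1, printed as Shld1-/-. The libraries printed as Xlf-/- had 3.85% (WT 3) and 3.23% (Xlf-/- 1), and those printed as Shld1-/- Xlf-/- had 8.62% (Xlf-/- 2) and 9.23% (Shld1-/- Xlf-/- 3). The ranges of the printed Shld1-/- and Xlf-/- libraries overlapped, and both lay apart from the other printed genotypes. The 95% Wilson interval was 0.532% to 1.07% in WT 1, the library with the fewest upstream junctions, and 7.57% to 9.81% in Xlf-/- 2, the one with the most. Such intervals cover counting error only.

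Grouped by label, the same shares spread widely within each genotype. The mean was 2.68% ± 1.68 (SD, n = 3) for WT, 2.46% ± 1.86 (n = 2) for Shld1-/-, 4.32% ± 3.88 (n = 3) for Xlf-/- and 6.51% for the 2 libraries labelled Shld1-/- Xlf-/-. By label, the share was 0.99 percentage points higher with SHLD1 loss (exact two-sided permutation test within XLF genotypes, p = 0.54) and 2.84 points higher with XLF loss (exact permutation p = 0.217). None of the 12 tests by label passed, with adjusted p of 0.825 to 0.97. By printed genotype, the share was 4.03 points higher with SHLD1 loss (exact permutation p = 0.0167, adjusted 0.048) and 3.90 points higher with XLF loss (exact permutation p = 0.01, adjusted 0.048), both the smallest p these designs allow. The rise with SHLD1 loss was 2.67 points with XLF present and 5.39 points without it, a difference that did not pass its test (exact permutation p = 0.35). By label, SHLD1 loss gave −0.22 points with XLF present and 2.19 points without it (exact permutation p of the difference = 0.46).

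The share of Igh also depends on how many junctions a library had in Sγ1, which ranged from 300 to 5181. Counted only among Igh junctions outside Sγ1, the upstream share was 2.67% ± 0.79 (SD, n = 3) in libraries printed as WT, 5.21% ± 0.51 (n = 3) in those printed as Shld1-/-, 6.97% ± 0.33 (n = 2) in those printed as Xlf-/- and 11.5% and 12.5% in the 2 libraries printed as Shld1-/- Xlf-/-. These ranges did not overlap between any of the printed genotypes. With this denominator, which leaves out the junctions used to assign the printed genotypes, the differences by printed genotype were 3.78 points for SHLD1 loss (exact permutation p = 0.0167) and 5.54 points for XLF loss (exact permutation p = 0.01). By label they were 0.83 points (exact permutation p = 0.7) and 3.64 points (exact permutation p = 0.167). The denominator was chosen for the printed genotypes after the data were seen.

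Orientation set the libraries printed as WT apart from all others. The same-strand share of upstream junctions was 80.6% in WT 1, 71.0% in Shld1-/- 2 and 72.3% in Xlf-/- 3, and between 20.8% and 34.5% in the other 7 libraries. The printed Shld1-/-, Xlf-/- and Shld1-/- Xlf-/- libraries overlapped in this share, at 26.5% ± 4.95 (SD, n = 3), 28.6% ± 8.37 (n = 2) and 24.1% ± 3.75 (n = 2), against 74.6% ± 5.25 (n = 3) in those printed as WT. Over all libraries, 359 upstream junctions were same-strand and 645 opposite-strand. By printed genotype the share differed by −26.3 points with SHLD1 loss (exact permutation p = 0.0333, adjusted 0.0571), and by −24.2 points with XLF loss (exact permutation p = 0.03, adjusted 0.0571), so neither passed after adjustment over the 12 tests. By label the differences were −9.08 points (exact permutation p = 0.53) and −18.2 points (exact permutation p = 0.217).

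Counted per 1000 Igh junctions, the opposite-strand junctions differed by more between printed genotypes than the same-strand junctions. There were 2.61 ± 1.01 (SD, n = 3) opposite-strand junctions per 1000 in libraries printed as WT, 27.0 ± 2.98 (n = 3) in those printed as Shld1-/-, 25.1 ± 0.17 (n = 2) in those printed as Xlf-/- and 67.8 ± 6.62 (n = 2) in those printed as Shld1-/- Xlf-/-. Same-strand junctions were at 7.40 ± 1.14, 9.68 ± 1.55, 10.3 ± 4.22 and 21.5 ± 2.30 per 1000, in the same order. Single libraries had between 1.46 (WT 1) and 72.5 (Shld1-/- Xlf-/- 3) opposite-strand junctions per 1000, and between 6.08 (WT 1) and 23.1 (Xlf-/- 2) same-strand junctions. Among Igh junctions outside Sγ1, same-strand junctions were at 19.7 ± 4.73 per 1000 in libraries printed as WT and 13.7 ± 1.97, 20.1 ± 6.78 and 28.8 ± 2.92 in the others, so that the printed WT range overlapped those printed as Shld1-/- and Xlf-/-. Opposite-strand junctions were at 7.06 ± 3.17, 38.4 ± 5.84, 49.6 ± 3.46 and 91.1 ± 9.44 per 1000 outside Sγ1, with no overlap between printed genotypes. These counts by orientation were chosen after the data were seen and were not tested.

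**Figure D1:**
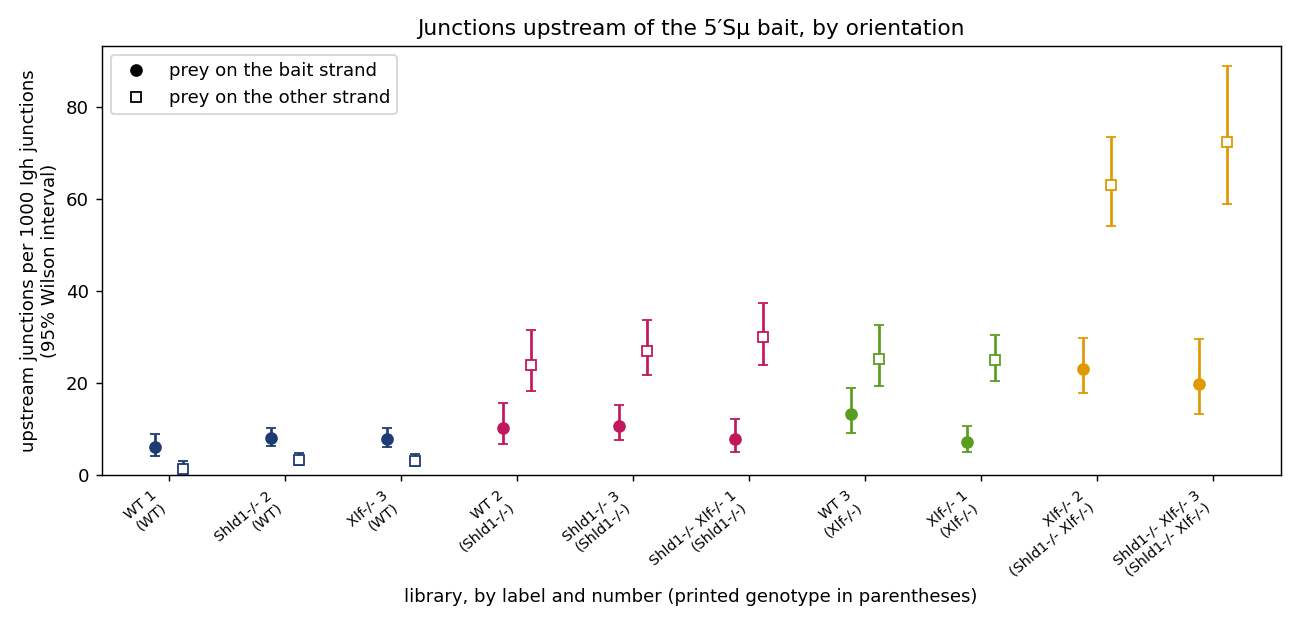
Upstream junctions per 1000 Igh junctions (y axis, with 95% Wilson intervals) in each of the 10 libraries (x axis, by label and number with the printed genotype in parentheses and in colour). Filled circles are same-strand preys and open squares opposite-strand preys: the squares lie below the circles in the 3 libraries printed as WT and above them in the other 7, up to 72.5 per 1000.

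Within every library, upstream junctions were less often same-strand than the Sμ and Sγ1 junctions of the same library. In those windows a same-strand prey runs on away from the bait, the orientation of a deletion, so the name covers another product there. In the Sμ window, from 114653500 up to the upstream window, the same-strand share was 91.7% to 96.2% in libraries printed as WT, 84.6% to 87.4% in those printed as Shld1-/-, 79.3% to 83.1% in those printed as Xlf-/- and 78.2% to 81.9% in those printed as Shld1-/- Xlf-/-. The upstream share was lower in 10 of 10 libraries, by 15.5 to 63.7 points, with a mean difference of −45.3 ± 18.6 points (SD, n = 10; exact sign-flip permutation p = 0.00195, adjusted 0.0107). Against Sγ1 junctions it was also lower in 10 of 10, with a mean difference of −40.4 ± 15.3 points (SD, n = 10; exact sign-flip permutation p = 0.00195, adjusted 0.0107). Both p-values are the smallest that 10 libraries can give, and these comparisons do not depend on the genotype assigned to a library. The gap to Sμ was between −22.1 and −15.5 points in the libraries printed as WT and between −63.7 and −48.6 points in the other 7.

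The same-strand share differed between the 1 kb on either side of the window start. Below the bait, same-strand preys run away from it, and above it they run back. The last 1 kb below the window held 3821 junctions, of which 87.5% were same-strand, while the first 1 kb of the window held 353, of which 24.4% were same-strand. Close to the boundary, the last 100 bp below it held 11 junctions, all same-strand. The first 100 bp above it held 64, of which 24 were same-strand. Most of the last 100 bp below the boundary lie above the usual bait start at 114664909, on the upstream side. They are nevertheless part of the Sμ window. Where the share changes relative to the bait start was therefore not resolved. At the far end, the last 1 kb of the window held 6 junctions and the first 1 kb beyond it 9.

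**Figure D2:**
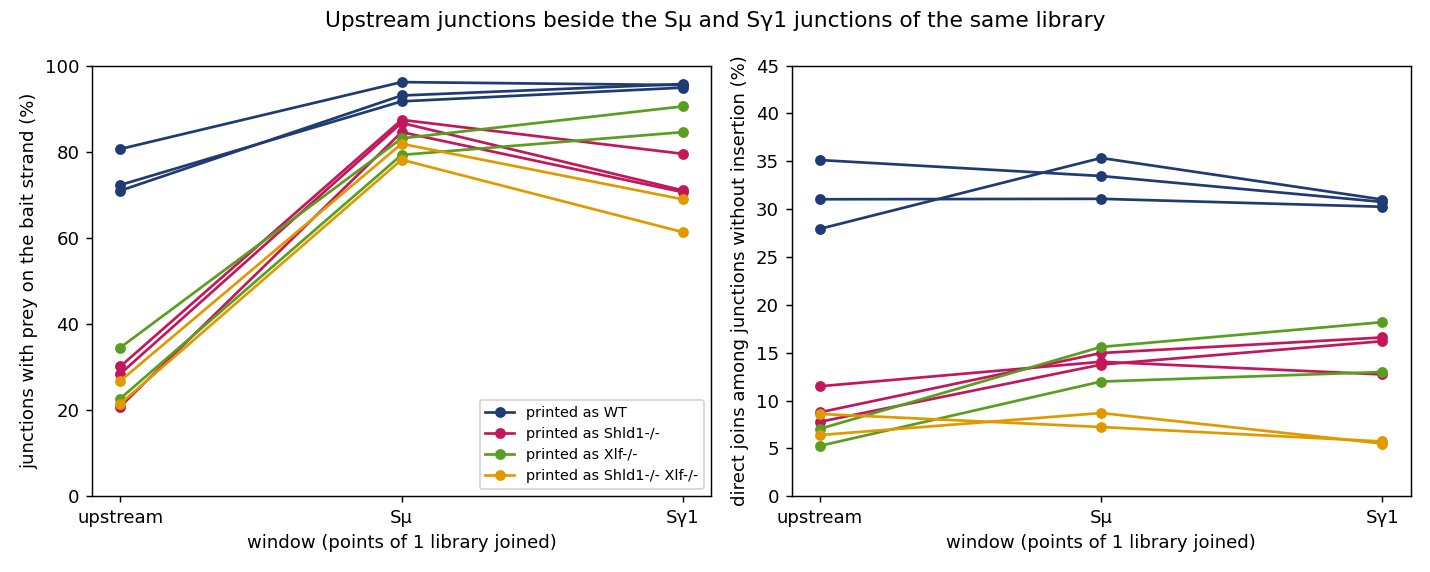
Left, the percentage of junctions with the prey on the bait strand; right, the percentage of direct joins among junctions without insertion, in the upstream, Sμ and Sγ1 windows (x axis), with the points of 1 library joined by a line and coloured by printed genotype. On the left the upstream point is the lowest of each library's 3 points, and on the right the 3 libraries printed as WT lie above the other 7 in each window.

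Most upstream junctions lay near the bait. Of 35 bins of 1 kb, 31 held a junction, but only the first 3 held at least 5% of upstream junctions in the mean over libraries, and only these held junctions in all 10 libraries. They held 353, 209 and 140 junctions, together 69.9% of the total. The first bin was mostly opposite-strand (267 of 353), while 124 of 209 and 90 of 140 were same-strand in the next bins. That majority came from libraries printed as WT, with 71 of 85 and 51 of 57 same-strand. In the second bin, 25 of 51, 15 of 37 and 13 of 36 were same-strand in libraries printed as Shld1-/-, Xlf-/- and Shld1-/- Xlf-/-, and in the third 9 of 26, 13 of 25 and 17 of 32. Summed over libraries printed as WT the second bin was the fullest, with 85 junctions against 58 in the first and 57 in the third. Among them, WT 1 (17) and Shld1-/- 2 (43) had most in the second bin, and Xlf-/- 3 had most in the third (32, against 24 and 25). In those printed as Xlf-/- the first bin held 104 of 203 junctions and the second 37. The fullest bin was also the first in libraries printed as Shld1-/- (96 of 278) and as Shld1-/- Xlf-/- (95 of 316).

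Junctions far upstream were nearly absent from libraries printed as WT and most frequent in those printed as Shld1-/- Xlf-/-. Beyond 5 kb from the window start there were 0 junctions in WT 1, 2 in Shld1-/- 2 and 1 in Xlf-/- 3. There were 21 in WT 2, 42 in Shld1-/- 3 and 29 in Shld1-/- Xlf-/- 1, then 15 in WT 3 and 13 in Xlf-/- 1, and 82 in Xlf-/- 2 and 41 in Shld1-/- Xlf-/- 3. Of all 246 such junctions, 47 were same-strand. Per 1000 Igh junctions this was 0 to 0.247 in libraries printed as WT, 9.91 to 14.6 in those printed as Shld1-/-, 3.53 and 6.88 in those printed as Xlf-/-, and 33.8 and 35.4 in those printed as Shld1-/- Xlf-/-. The ranges did not overlap. With none seen in WT 1, the approximate 95% upper limit of its share is 0.073%, which is 3 junctions among its 4109 Igh junctions.

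The proximal share, the percentage of upstream junctions within 5 kb, was 98.9% ± 1.08 (SD, n = 3) in libraries printed as WT, 67.5% ± 5.27 (n = 3) in those printed as Shld1-/-, 85.6% ± 4.90 (n = 2) in those printed as Xlf-/- and 61.2% ± 0.65 (n = 2) in those printed as Shld1-/- Xlf-/-. The lowest values were 60.8% and 61.5%, in Xlf-/- 2 and Shld1-/- 3, so that the printed Shld1-/- and Shld1-/- Xlf-/- libraries overlapped. By printed genotype the differences were −27.9 points for SHLD1 loss (exact permutation p = 0.0167, adjusted 0.048) and −9.77 points for XLF loss (exact permutation p = 0.02, adjusted 0.048). By label they were −11.0 points (exact permutation p = 0.3) and −7.75 points (exact permutation p = 0.55). Leaving out any of 6 single libraries (WT 1, Shld1-/- 2, Xlf-/- 3, WT 3, Xlf-/- 1 or Xlf-/- 2) raised the p for XLF loss by printed genotype to 0.05, with differences of −11.5 to −8.04 points over all 10 omissions.

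**Figure D3:**
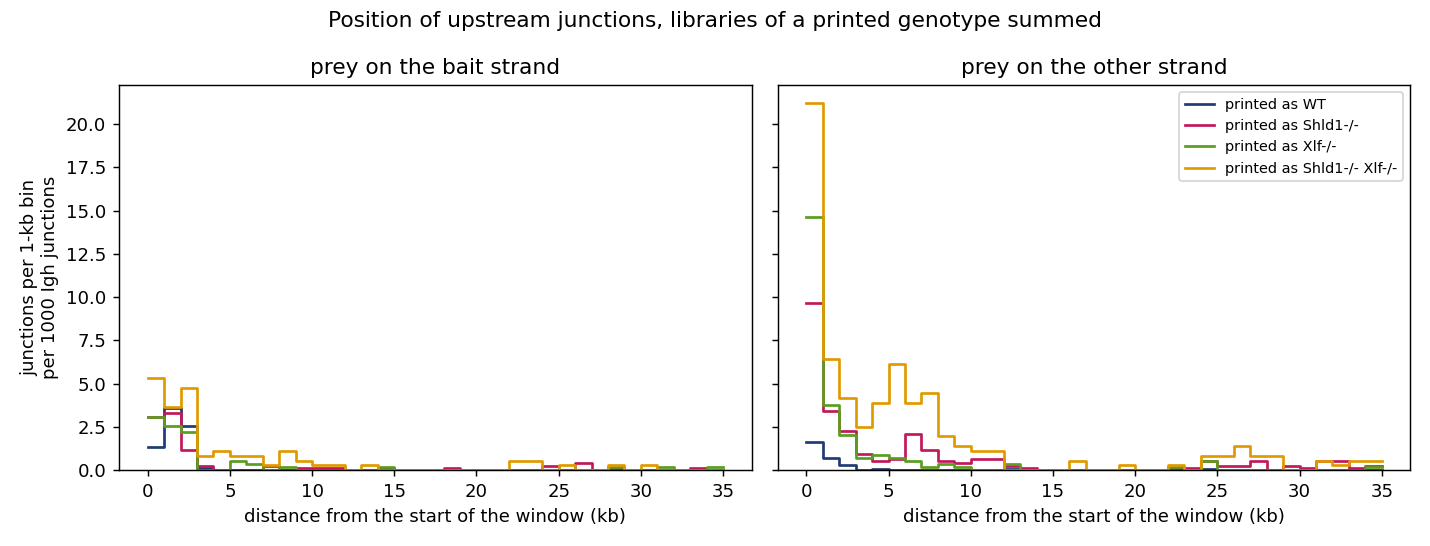
Junctions per 1-kb bin and per 1000 Igh junctions (y axis) against the distance from the start of the upstream window in kb (x axis), for same-strand (left) and opposite-strand preys (right), with the libraries of a printed genotype summed. The first bin is the highest on the right for every printed genotype, and the line of libraries printed as WT is near 0 beyond 3 kb on both sides.

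To place the junctions among the annotated segments, each prey was matched by its own sequence to GRCm38, which succeeded for 922 of 1004 junctions (91.8%). The RefSeq annotation gives 4 J segments and 9 D segments in the matched stretch. The J segments provide the 3′ end of the variable exon, and the D segments its middle. The stretch from the window start to Ighj4, at chr12:113426789-113428513, is 1725 bp of the intron and held 474 junctions. Of these, 109 were in libraries printed as WT, 61.5% of them same-strand, and 130, 123 and 112 in those printed as Shld1-/-, Xlf-/- and Shld1-/- Xlf-/-, of which 32.3%, 20.3% and 21.4% were same-strand. The stretch therefore showed the same split as the whole window.

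The J cluster, from Ighj4 to Ighj1 at chr12:113428514-113429833, held 179 junctions in 1320 bp. Same-strand preys made up 65 of the 71 J cluster junctions in libraries printed as WT, with 10 of 10 in WT 1, 26 of 28 in Shld1-/- 2 and 29 of 33 in Xlf-/- 3. They made up 13 of 36 in those printed as Shld1-/-, 17 of 33 in those printed as Xlf-/- and 21 of 39 in those printed as Shld1-/- Xlf-/-. In the other 7 libraries the share lay between 33.3% and 59.3%, below each of the 3 printed as WT. Per 1000 Igh junctions, same-strand J cluster junctions were at 2.43 to 3.85 in libraries printed as WT and at 1.58 to 6.60 in the others, so that these ranges overlapped. Opposite-strand ones were at 0 to 0.531 in the former and at 2.44 to 6.04 in the latter.

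Within the J segments themselves there were 54 junctions, of which 21 lay in Ighj4, 12 in Ighj3, 17 in Ighj2 and 4 in Ighj1. Same-strand preys were 16, 11, 14 and 3 of these. Of all junctions, 8 began within 5 bp of the border between a J segment and its recombination signal, the site at which RAG cuts during V(D)J joining. The J cluster as a whole held 179 junctions in 1320 bp, and an excess at these borders was not tested. In the 9 D segments there were 3 matched junctions, in Ighd4-1 (2) and Ighd5-8 (1), all opposite-strand.

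Above the J cluster, junctions came almost only from libraries not printed as WT. From Ighj1 to Ighd4-1, the D segment nearest the J cluster, 705 bp held 11 junctions, none in libraries printed as WT and 6 in Shld1-/- Xlf-/- 3. From Ighd4-1 to Ighd3-2, at chr12:113430539-113448213, a stretch of 17675 bp held 198 junctions, of which 163 were opposite-strand. Libraries printed as WT had 0 (WT 1), 2 (Shld1-/- 2) and 1 (Xlf-/- 3) of these. Those printed as Shld1-/- had 13 (WT 2), 27 (Shld1-/- 3) and 19 (Shld1-/- Xlf-/- 1), and those printed as Xlf-/- had 14 (WT 3) and 12 (Xlf-/- 1). Xlf-/- 2 had 76 and Shld1-/- Xlf-/- 3 had 34, which were 31.4 and 29.3 per 1000 Igh junctions. The other libraries lay between 0 and 9.37 per 1000, so that the libraries printed as Shld1-/- Xlf-/- stood apart. Beyond Ighd3-2, 13575 bp held 60 junctions, 2 of them in libraries printed as WT, 30 in those printed as Shld1-/-, 7 in those printed as Xlf-/- and 21 in those printed as Shld1-/- Xlf-/-. The matching to GRCm38 lost a larger part of the junctions there than nearer the bait, so that these counts are too low. The intervals were chosen after the data were seen and were not tested.

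**Figure D4:**
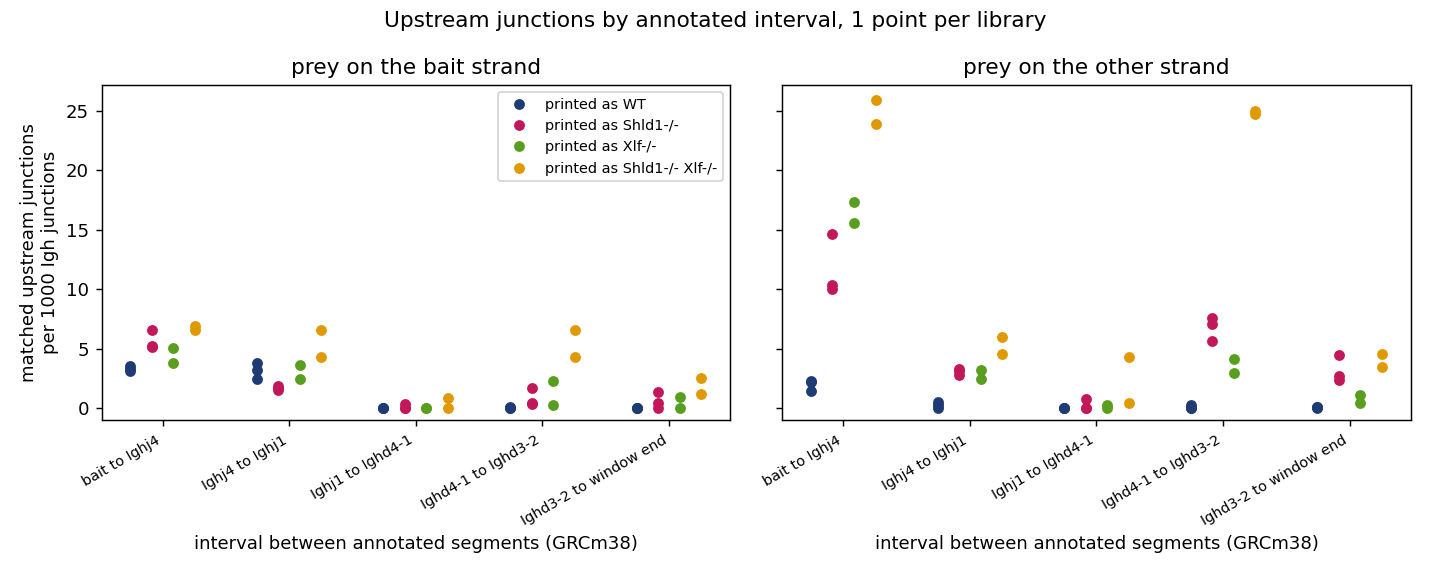
Matched upstream junctions per 1000 Igh junctions (y axis, 1 point per library, coloured by printed genotype) in 5 intervals between annotated segments in order from the bait (x axis), for same-strand (left) and opposite-strand preys (right). In the J cluster (Ighj4 to Ighj1) the libraries printed as WT are among the others on the left and lowest on the right, and from Ighd4-1 to Ighd3-2 the libraries printed as Shld1-/- Xlf-/- lie at 24.8 opposite-strand junctions per 1000 or above.

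AGCT is the motif at which AID, the enzyme that starts class switch breaks, is known to act most often, and it reads the same on both strands. Of the matched upstream junctions, 2.82% began within 1 base of an AGCT, against 2.83% of all bases of the window. The motif is rarer near the bait, where most junctions lay: it reached 1.69% of junctions and 1.74% of bases from the window start to Ighj4, 3.35% and 2.73% in the J cluster, and 5.05% and 3.36% from Ighd4-1 to Ighd3-2. These shares rest on 8, 6 and 10 junctions. From Ighj1 to Ighd4-1 the motif was near 1 of 11 junctions (9.09%, against 2.55% of bases). Beyond Ighd3-2 it was near 1 of 60 (1.67%, against 2.30% of bases). None of these shares was tested.

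The joins themselves followed the same split between libraries printed as WT and the rest. Direct joins, with an MH of 0 bp, are typical of classical end joining, and longer MH of alternative pathways. Among upstream junctions without an insertion, direct joins made up 31.0% in WT 1, 35.1% in Shld1-/- 2 and 27.9% in Xlf-/- 3. They made up 8.77% in WT 2, 7.78% in Shld1-/- 3, 11.5% in Shld1-/- Xlf-/- 1, 7.04% in WT 3, 5.26% in Xlf-/- 1, 6.40% in Xlf-/- 2 and 8.60% in Shld1-/- Xlf-/- 3. The 3 libraries printed as WT lay above all others, and the other printed genotypes overlapped. By printed genotype the share differed by −13.5 points with XLF loss (exact permutation p = 0.02, adjusted 0.048) and by −10.3 points with SHLD1 loss (exact permutation p = 0.0833, adjusted 0.125). SHLD1 loss went with a difference of −22.0 points where XLF was present and of 1.35 points where it was lost (exact permutation p of the difference = 0.0333, not adjusted). By label the differences were −6.91 points (exact permutation p = 0.417) and 1.34 points (exact permutation p = 0.82). The p for XLF loss by printed genotype rose to between 0.05 and 0.0667 without WT 1, Shld1-/- 2, Xlf-/- 3, WT 3, Xlf-/- 1 or Xlf-/- 2, with differences of −14.4 to −12.6 points over all 10 omissions.

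The direct joins of the Sμ junctions also set the libraries printed as WT apart, at 31.1% to 35.4% in those printed as WT and 7.24% to 15.6% in the others. The upstream share was below the Sμ share in 8 of 10 libraries, with a mean difference of −3.67 ± 3.79 points (SD, n = 10) that did not pass after adjustment over 11 tests (exact sign-flip permutation p = 0.0215, adjusted 0.0591). Against Sγ1 it was lower in 6 of 10 libraries, at −3.05 ± 5.40 points (SD, n = 10; exact sign-flip permutation p = 0.109). Within the upstream junctions, same-strand joins were more often direct than opposite-strand joins in 9 of 10 libraries, by 7.43 ± 7.92 points (SD, n = 10; exact sign-flip permutation p = 0.00977, adjusted 0.0358). Summed over the libraries of a printed genotype, 35.4% of same-strand and 20.5% of opposite-strand joins were direct in WT, 12.9% and 8.14% in Shld1-/-, 10.9% and 4.17% in Xlf-/-, and 11.1% and 5.94% in Shld1-/- Xlf-/-. The exception was Shld1-/- Xlf-/- 1, with 1 of 17 same-strand and 9 of 70 opposite-strand joins.

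MH over 3 bp made up 9.46% to 16.2% of upstream joins without insertion in libraries printed as WT and 20.4% to 31.0% in the other 7. The ranges did not overlap, but neither gene's loss passed its test by printed genotype (5.48 points for SHLD1 loss, exact permutation p = 0.167; 5.83 points for XLF loss, exact permutation p = 0.23). The rise from libraries printed as WT to those printed as Shld1-/- was 14.8 points and to those printed as Xlf-/- 15.2 points, while those printed as Shld1-/- Xlf-/- had 28.5% (Xlf-/- 2) and 20.4% (Shld1-/- Xlf-/- 3). The first of these was within the range of the libraries printed as Shld1-/- (22.8% to 31.0%) and next to those printed as Xlf-/- (28.2% and 28.4%), and the other was below both. By label the differences were −0.24 points for SHLD1 loss (exact permutation p = 0.97) and 4.39 points for XLF loss (exact permutation p = 0.417). The most frequent MH length was 0 bp in the summed libraries printed as WT (31.6%), 3 bp in those printed as Xlf-/- (27.7%) and 2 bp in those printed as Shld1-/- (26.5%) and Shld1-/- Xlf-/- (28.3%). The 204 MH over 3 bp were of 121 different sequences, the most frequent being CCAG (9 junctions), AGCC (7) and CCAGA (6), and the longest was 12 bp. The MH of the printed opposite-strand read is thus one of the frequent ones. The long MH share of upstream junctions did not pass a test against Sμ (1.03 points, exact sign-flip permutation over 10 libraries, p = 0.42) or Sγ1 (−1.68 points, exact sign-flip permutation p = 0.516).

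**Figure D5:**
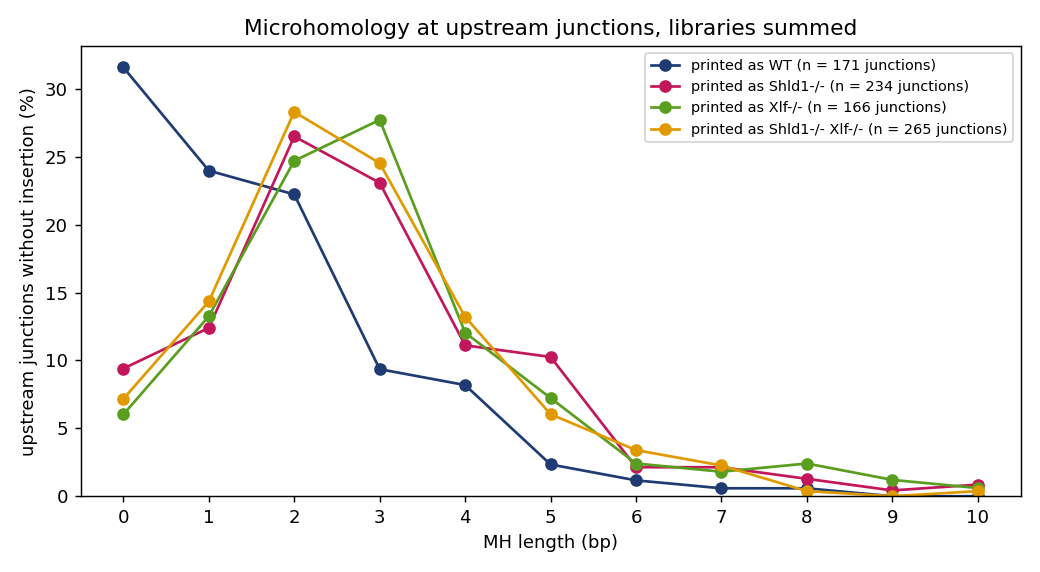
Percentage of upstream junctions without insertion (y axis) by MH length in bp (x axis), with the libraries of a printed genotype summed and lengths up to 10 bp shown. Libraries printed as WT are highest at 0 bp (31.6%) and the others at 2 or 3 bp (26.5% to 28.3%).

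Insertions, bases at the join that belong to neither partner, were found at 168 upstream junctions (16.7%), of which 90 were 1 to 3 bp long and the longest was 28 bp. The share was 6.45% in WT 1, where it rests on 2 junctions, and 9.38% to 21.9% in the other libraries. The printed genotypes overlapped, with means of 15.0%, 16.2%, 17.8% and 15.4% for WT, Shld1-/-, Xlf-/- and Shld1-/- Xlf-/-. Neither gene's loss passed a test by label (−1.55 and −1.83 points, exact permutation p = 0.71 and 0.633) or by printed genotype (−0.59 and 0.99 points, exact permutation p = 0.883 and 0.78). Against Sμ, upstream insertions were fewer in 7 of 10 libraries, by −4.30 ± 6.38 points (SD, n = 10; exact sign-flip permutation p = 0.0391, adjusted 0.0859).

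The median bait length was close in both orientations. The bait part of the read, from its usual start at 114664909 in mm9, had a median of 62 bp in same-strand and 59 bp in opposite-strand upstream junctions, and of 65 bp in Sγ1 junctions.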

How the data were processed

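CSR-HTGTS libraries were made by the authors from stimulated splenic B cells, aligned with Bowtie2 to mm9 per the labels, and deposited as lists with 1 row per junction. The deposited values are not normalized, and those used here are prey and bait coordinates with their strands, alignment positions on each read, and the pipeline's flags. Of 15 samples, 10 lists were used, 2 with only MH lengths and 3 of the 129s strain, whose bait has another coordinate, were not used. Members and lists were chosen with earlier results of these data known. MH was the last bait base minus the first prey base on the read plus 1, and negative values are insertions. Sμ was 114653500 to 114665000 and Sγ1 114562000 to 114582000. Named bins held at least 5% of upstream junctions in the mean, and named positions were the 5 fullest in at least 3 libraries.

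Library values, with 95% Wilson intervals, were tested with two-sided exact permutation within genotypes of the other gene (12 by label as the main tests, 12 by printed genotype as an alternative) and by exact sign-flip tests within libraries (11), each family with Benjamini-Hochberg adjustment. Other alternatives were the flags, collapsed rows, windows, denominators, MH limits, pooling and each library left out. For annotation, prey sequences of at least 30 bp were matched uniquely to GRCm38 (RefSeq), since mm9 was not used here as a genome, and no coordinate was converted. PCR reads carry no molecular identifiers. Python 3.11.15, numpy 2.4.6, pandas 2.3.3, scipy 1.17.1 and statsmodels 0.14.6 were used, and the tests were tested on simulated data.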

Additional observations from a re-analysis of the deposited data

Results flagged for a closer look

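Of 11 differences within libraries, 1 held a library far from the others: the insertion share of upstream junctions against Sμ was −19.0 points in WT 1 (printed as WT), where 2 of 31 upstream junctions had an insertion. Chance alone puts about 1 in 20 such groups on this list.

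By printed genotype, the effect of SHLD1 loss on the direct joins of upstream junctions differed between XLF genotypes by 23.4 points (exact permutation p = 0.0333, not adjusted), from −22.0 points with XLF to 1.35 points without it. The effect of XLF loss on MH over 3 bp differed between SHLD1 genotypes by −18.6 points (exact permutation p = 0.03, not adjusted), from 15.2 points with SHLD1 to −3.49 points without it. By label, no such difference passed, and the smallest p for SHLD1 loss was 0.08 (exact permutation).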

How the results depend on the processing

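By label, no test of SHLD1 or XLF loss passed in any setting, except when the libraries were regrouped. Regrouped by printed genotype, the differences for SHLD1 and XLF loss were 4.03 and 3.90 points in the upstream share, −26.3 and −24.2 in the same-strand share and −27.9 and −9.77 in the proximal share, all then at an exact permutation p below the threshold of 0.05, as was XLF loss for direct joins (−13.5). Regrouping also turned the sign of SHLD1 loss for direct joins (−10.3) and long MH (5.48) and of XLF loss for insertions (0.99). With only the 4 libraries given 1 genotype by both label and plots, SHLD1 loss gave 4.51 points for the upstream share and −33.0 for the proximal share, and XLF loss 4.68 for insertions, with no test. In these libraries SHLD1 and XLF loss gave −26.7 and −32.5 for the same-strand share, and SHLD1 loss turned sign against the value by label for direct joins (−9.96), long MH (4.11) and insertions (1.95). For long MH by label, SHLD1 loss turned sign with insertions kept in the denominator (0.56) and with MH over 4 bp (1.26). The cause was not tested.

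With a library left out, differences by label for SHLD1 loss ranged from −0.37 to 2.35 points in the upstream share, −19.7 to 1.55 in the same-strand share, −5.50 to 8.18 in direct joins, −5.38 to 4.89 in long MH and −3.59 to 0.27 in insertions. For XLF loss they ranged from −0.75 to 9.52 in long MH and −16.8 to 1.34 in the proximal share. By printed genotype, in alternatives chosen after the data were seen, leaving out a library gave −29.3 to −23.4 (SHLD1 loss) and −27.1 to −21.2 (XLF loss) in the same-strand share, −14.4 to −12.6 in direct joins for XLF loss, 3.47 to 7.50 in long MH for SHLD1 loss, −2.72 to 1.13 (SHLD1 loss) and −1.14 to 2.41 (XLF loss) in insertions, and −11.5 to −8.04 in the proximal share for XLF loss. In all, 23 of the 120 such omissions raised an unadjusted p to the threshold or above it without turning the sign, and with fewer libraries the smallest possible p is also larger. The upstream share by printed genotype and the proximal share for SHLD1 loss passed in each omission. With the window started 1 kb higher, XLF loss by printed genotype gave −22.1 points in the same-strand share (exact permutation p = 0.05) and −0.47 in insertions.

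Within libraries, the lower same-strand share upstream and the more frequent direct joins of same-strand junctions passed, unadjusted, in every setting tried. The first of these compares unlike products, since same-strand preys have the orientation of a deletion in Sμ and Sγ1 but not upstream. The insertion difference to Sμ was 0.29 points without rows flagged for mapping quality, which include Sμ but no upstream rows, and −5.03 to −2.67 with a library left out. Leaving out a library gave −2.75 to 0.056 for long MH against Sγ1. Over all 10 libraries, the long MH share of same-strand minus opposite-strand junctions was −2.80 points (exact sign-flip permutation p = 0.545). Without libraries that had under 20 joins without insertion in either orientation, it was −9.00 points (exact sign-flip permutation p = 0.0156). That is the smallest p the remaining libraries can give. Left out were the only libraries with a positive difference, WT 1 (16.0 points) and Shld1-/- Xlf-/- 1 (27.2 points), and Xlf-/- 3 (−8.22 points). No analysis paired libraries between genotypes, because the labels carry no replicate numbers that do so. The plots of the study show numbered repeats, and pairing by these was not tried. Counts of 31 to 209 junctions limit the precision of each library's shares.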
